A study of Mus musculus with 4 samples.

Results

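The solute carrier genes were taken as every gene on the array whose symbol begins with Slc and a digit. The scaffold genes Slc9a3r1 and Slc9a3r2, which share the prefix but encode no transporter, were left out. This gave 231 of 12347 named genes, on 309 probes of a single gene name. The array also names Slc4a1ap and Slc7a6os after a transporter that each partners or overlaps, and these 2 of the 231 genes are not transporters themselves. Of the 231 genes, 69 had a probe with a value on all 4 arrays, which is 29.9% of them, against 4754 of all 12347 named genes. A further 91 had values on both siSelT-5 arrays and none on a siSelT-1 array, and the other 71 were measured in part.

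The cells were NIH 3T3, a mouse embryonic fibroblast line. Knockdown cells carried the plasmid pU6-m3 with 1 of 2 target sequences of Selt, the gene of selenoprotein T, a redox protein of the endoplasmic reticulum. The siSelT-1 cells carried the sequence of nucleotides 205 to 224 of the Selt mRNA, and the siSelT-5 cells that of nucleotides 971 to 989. Control cells carried pU6-m3 without a target sequence. All of these cells, controls included, were selected with 150 µg/ml hygromycin B and grown in DMEM with an antibiotic-antimycotic, 10% serum and 100 nM sodium selenite. Whether the selected cells were pools or single clones is not given in the sources used here. Each of the 4 two-colour arrays set Cy5-labelled knockdown RNA against Cy3-labelled vector RNA, with 2 arrays for each construct, and the 2 arrays of a construct used separate cultures taken at separate times.

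Solute carriers are membrane proteins that move amino acids, sugars, metal ions, nucleotides, vitamins and other small solutes across the plasma membrane and the membranes of organelles. Most work as facilitated carriers or couple the solute to a gradient of sodium, protons or another solute, and some, such as the cystine and large neutral amino acid exchangers, need a separate heavy chain to reach the surface. In fibroblasts they supply growing cells with amino acids and glucose, load the Golgi with nucleotide sugars and zinc, and exchange metabolites between the cytosol, mitochondria and peroxisomes.

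Every value below is a log2 ratio of knockdown over vector on 1 array or a mean of such ratios, with SD over 4 arrays unless another n is given. The log base and the direction are readings of the deposited values and of the dye labels, because neither is stated. The median ratio of the 7038 probes present on all 4 arrays lay at 0.14 for siSelT-1, 0.39 for siSelT-5 and 0.27 over both, so results are given as deposited and with each array centred on that median. The siSelT-1 arrays held 7689 and 9232 values of 22534 probes, and the siSelT-5 arrays 20268 and 18361. Over all the values of an array, the median was 0.18 and 0.06 for siSelT-1 and -0.22 and -0.19 for siSelT-5. The rise of the siSelT-5 median is thus one of the shared probes alone. Replicates of siSelT-1 also lay closer together, at a root mean square SD of 0.16 per gene against 0.35 for siSelT-5. No probe named Selt, so the knockdown itself could not be checked. Of 12 fibroblast markers, 8 were measured on all 4 arrays, Vim, Fn1 and Col3a1 among them, and of 5 epithelial markers none was. A ratio gives no level, so these markers show only that the transcripts had deposited values. Over both constructs 4 of the 8 fibroblast markers rose and 3 fell as deposited, and the endothelial markers Pecam1, Tie1 and Cd34, the 3 of 6 with values on all arrays, rose on both scales (means 0.70 to 0.72). Of the macrophage markers on all arrays, Lyz1 and Lyz2 fell after centring alone, the adipocyte marker Lpl rose on both scales, and the muscle marker Des rose as deposited alone. Among markers with siSelT-5 values alone, the endothelial Tek (mean -1.22), the adipocyte Fabp4 (-1.37), the muscle Myog (-1.23) and the epithelial Cdh1 (-1.91) fell as deposited. The macrophage Cd68 (0.41) and Cd14 (-0.03) did not pass as deposited. Centred on the median of genes with siSelT-5 values alone, Cdh1 fell and Cd68 rose (limma, adjusted p 0.011 and 0.024). The markers of the endothelial, adipocyte, muscle and macrophage lists stood on both sides of 0. The part of such markers in the results below was not tested. Fewer expressing cells and less RNA per cell cannot be told apart in RNA from whole cultures. The knockdown RNA carried the same dye throughout, and a dye effect of a single gene cannot be told apart from its ratio to vector.

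Taken over both constructs, the Slc genes measured on all 4 arrays had a lower median than all genes so measured. Their median ratio was 0.11 across the 69 genes, beside 0.25 across all 4754 genes tested, and after centring it was -0.16 beside -0.02. As deposited, 26 of the 69 rose and 4 fell (limma, Benjamini-Hochberg adjusted over all genes tested), where 45.7% of all genes rose and 8.04% fell. After centring, 8 rose and 16 fell, where 20.5% of all genes rose and 21.9% fell. Without siSelT-1 replicate 1 none of the 69 and none of all genes passed as deposited (0.0%), and without siSelT-1 replicate 2 the 69 gave 8 calls, where 18.4% of all genes passed. These shares are descriptions of the set, with no test of the set itself.

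In all, 12 genes passed in the same direction on both scales, 8 higher and 4 lower, where 20.5% of all genes were higher and 8.04% lower by the same rule. Centring lowered every array, so the scales are not independent checks. The 8 higher genes are those that rose after centring, and the 4 lower ones are those that fell as deposited. The heme carrier gene Slc48a1, the peroxisomal cofactor carrier gene Slc25a17 and the sugar carrier gene Slc50a1 stood highest. The neutral amino acid carrier genes Slc1a4 and Slc38a2, the zinc carrier gene Slc30a5 and the lysosomal nucleoside carrier gene Slc29a3 were the 4 that fell. Adjusted p-values of the 12 genes lay between 0.00161 and 0.0362 as deposited and between 0.0043 and 0.0298 centred (limma). They test the mean of the 2 construct means against 0, not each construct. Taken 1 construct at a time as deposited, Slc1a4, Slc38a2 and Slc30a5 passed for neither. Slc25a1, Slc6a8 and Slc29a3 passed for siSelT-5 but not for siSelT-1, in tests that share 1 spread per gene across both constructs. Without siSelT-1 replicate 1 none of the 12 passed on either scale (adjusted p 0.0515 to 0.209 as deposited), nor did any of the 4754 genes. As deposited their means moved by at most 0.07 when either siSelT-1 array was left out, and without siSelT-1 replicate 2 the 6 genes Slc48a1, Slc25a17, Slc50a1, Slc3a2, Slc2a8 and Slc6a8 passed as deposited and none centred. Without either siSelT-5 array all 12 passed on both scales.

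**Figure D1:**
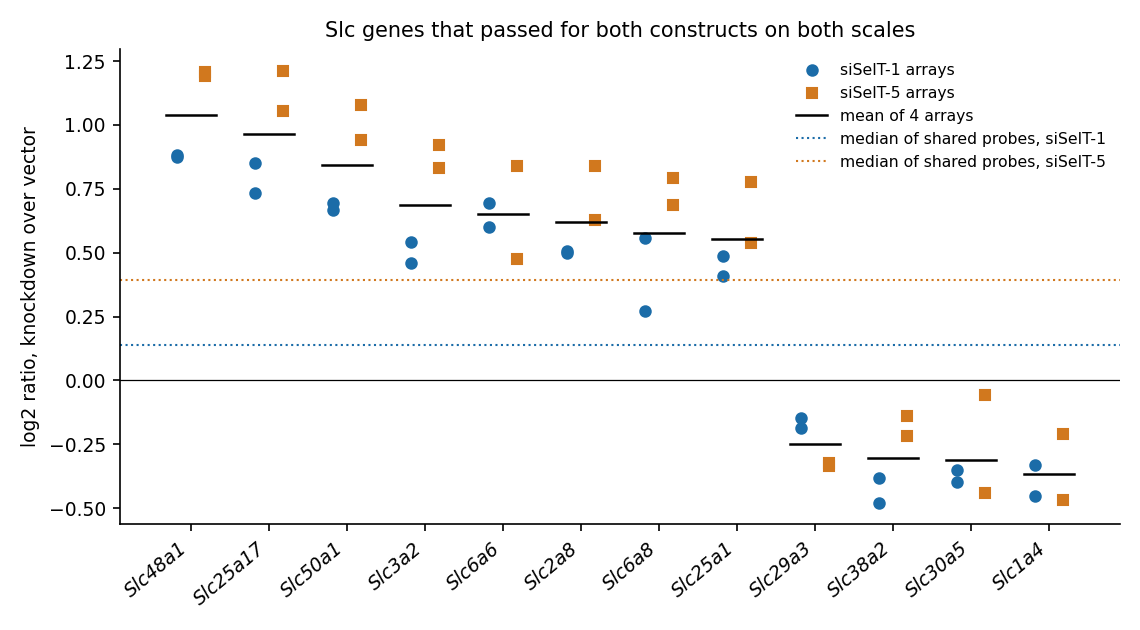
Log2 ratio of knockdown over vector on each array for the 12 Slc genes that passed for both constructs on both scales. Circles are the siSelT-1 arrays, squares the siSelT-5 arrays, bars the mean of 4 arrays and dotted lines the median of the probes shared by all arrays (0.14 for siSelT-1, 0.39 for siSelT-5). All 4 arrays of the 8 genes on the left lie above their own dotted line, and all 4 arrays of the 4 genes on the right lie below 0.

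Slc48a1 (Entrez Gene 67739) encodes HRG1, which carries heme out of endosomes and lysosomes. Its ratio was 0.88 and 0.87 with siSelT-1 and 1.19 and 1.21 with siSelT-5, and its mean for each construct was the highest of the 69 Slc genes. Its 2 siSelT-1 ratios were nearly equal, and both lay below the siSelT-5 pair, as do the medians of the probes shared by all arrays. The mean was 1.04 ± 0.19, a 2.05-fold ratio as deposited and 1.71-fold centred (adjusted p = 0.00161 as deposited, limma). Slc25a17 (20524) belongs by sequence to the mitochondrial carrier family, but its product sits in the peroxisomal membrane, where it carries coenzyme A and related cofactors. It stood at 0.85 and 0.73 with siSelT-1 and 1.06 and 1.21 with siSelT-5, a mean of 0.96 ± 0.21. Slc50a1 (19729), the mammalian member of the SWEET family of sugar carriers, stood at 0.69 and 0.67 with siSelT-1 and 1.08 and 0.94 with siSelT-5, a mean of 0.84 ± 0.20. For all 3 genes every siSelT-1 ratio was below every siSelT-5 ratio, by differences of -0.32, -0.34 and -0.33 for siSelT-1 minus siSelT-5, beside a median of -0.26 over all genes.

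Slc3a2 (17254) encodes CD98hc, the heavy chain that brings several amino acid exchangers to the surface. Its ratio was 0.54 and 0.46 with siSelT-1 and 0.83 and 0.92 with siSelT-5, a mean of 0.69 ± 0.22. Both of its probes measured on all arrays rose, at 0.80 and 0.58. Slc6a6 (21366), the taurine carrier gene, stood at 0.60 and 0.69 with siSelT-1 and 0.84 and 0.48 with siSelT-5, so that the constructs overlapped. Slc6a8 (102857), the creatine carrier gene, stood at 0.56 and 0.27 with siSelT-1 and 0.69 and 0.79 with siSelT-5. Both of these carriers take up osmolytes with sodium and chloride, and their means were 0.65 ± 0.15 and 0.58 ± 0.23. Slc2a8 (56017), which encodes the intracellular glucose carrier GLUT8, stood at 0.51 and 0.50 with siSelT-1 and 0.84 and 0.63 with siSelT-5, a mean of 0.62 ± 0.16. Slc25a1 (13358), the gene of the mitochondrial citrate carrier, stood at 0.49 and 0.41 with siSelT-1 and 0.78 and 0.54 with siSelT-5, a mean of 0.55 ± 0.16. In these 5 genes all 4 ratios lay above the median of their own array's shared probes. Other Slc2a8 probes, not measured on all arrays, stood at 0.20 and 0.12 on siSelT-5 replicate 2, below its shared median of 0.36. Their values on other arrays lay above the shared medians.

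Slc1a4 (55963) encodes ASCT1, an exchanger of alanine, serine, cysteine and threonine. Its ratio was -0.33 and -0.45 with siSelT-1 and -0.47 and -0.21 with siSelT-5, a mean of -0.37 ± 0.12, and the constructs overlapped. Slc38a2 (67760) encodes SNAT2, a sodium-coupled carrier of small neutral amino acids that is known to rise when amino acids are short. It stood at -0.48 and -0.38 with siSelT-1 and -0.22 and -0.14 with siSelT-5, a mean of -0.30 ± 0.15. This mean joins 2 probes that differed, 1 at -0.61 and the other at 0.01. Slc30a5 (69048) encodes ZnT5, which loads zinc into the early secretory pathway. It stood at -0.40 and -0.35 with siSelT-1 and -0.06 and -0.44 with siSelT-5, a mean of -0.31 ± 0.17 over probes at -0.11 and -0.51. Slc29a3 (71279), the gene of the lysosomal nucleoside carrier ENT3, stood at -0.15 and -0.19 with siSelT-1 and -0.34 and -0.32 with siSelT-5, a mean of -0.25 ± 0.10. All 16 of these ratios were below 0. Slc29a3 and Slc30a5 no longer passed as deposited when genes with 1 value per construct were let into the fit (adjusted p 0.0595 and 0.0532, limma).

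Promoter windows are shown for 4 of the 12 genes, 2 carriers of neutral amino acids and 1 carrier each of sugar and zinc. The 3 motifs, of amino acid, antioxidant and E-box control, were searched in every window available for the 12 genes. All 4 windows shown held a match. Those without a match, and that of Slc25a1, which held 1, are not shown. The motifs were TGATGNAA (C/EBP-ATF response element), TGACNNNGC (antioxidant response element core) and CACGTG (E-box), on both strands. Windows run from 250 bases before to 50 bases after the RefSeq start (GRCm38.p6, all 4 on the minus strand) and are written 5′ to 3′ along the gene, with motif matches in capitals. They lie at chr3:89270521-89270820 for Slc50a1, chr11:20332664-20332963 for Slc1a4, chr15:96699679-96699978 for Slc38a2 and chr13:100833378-100833677 for Slc30a5.
Slc50a1: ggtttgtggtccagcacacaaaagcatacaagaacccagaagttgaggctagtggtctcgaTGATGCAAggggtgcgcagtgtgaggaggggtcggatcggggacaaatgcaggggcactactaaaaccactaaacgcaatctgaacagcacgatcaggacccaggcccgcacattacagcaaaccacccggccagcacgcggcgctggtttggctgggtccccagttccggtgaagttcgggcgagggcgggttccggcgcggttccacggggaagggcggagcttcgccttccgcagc
Slc1a4: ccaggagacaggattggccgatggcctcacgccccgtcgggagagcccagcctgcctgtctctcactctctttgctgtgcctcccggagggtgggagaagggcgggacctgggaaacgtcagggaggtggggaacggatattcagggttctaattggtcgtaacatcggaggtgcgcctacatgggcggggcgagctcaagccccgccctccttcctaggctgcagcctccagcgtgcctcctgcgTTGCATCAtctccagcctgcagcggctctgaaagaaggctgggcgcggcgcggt
Slc38a2: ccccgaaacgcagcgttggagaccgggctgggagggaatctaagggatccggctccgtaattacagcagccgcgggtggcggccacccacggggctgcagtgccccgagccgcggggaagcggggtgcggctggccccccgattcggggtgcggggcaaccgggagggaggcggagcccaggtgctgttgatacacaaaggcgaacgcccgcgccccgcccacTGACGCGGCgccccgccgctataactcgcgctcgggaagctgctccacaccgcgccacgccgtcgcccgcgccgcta
Slc30a5: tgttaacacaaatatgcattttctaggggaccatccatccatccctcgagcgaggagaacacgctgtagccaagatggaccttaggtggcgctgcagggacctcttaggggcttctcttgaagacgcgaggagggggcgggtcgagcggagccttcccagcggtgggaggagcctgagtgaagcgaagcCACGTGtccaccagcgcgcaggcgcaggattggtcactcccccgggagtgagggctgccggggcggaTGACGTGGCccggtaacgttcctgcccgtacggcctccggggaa

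The RefSeq table held windows for 179 of the 231 Slc genes and for 9 of the 12 that passed on both scales, 5 higher and 4 lower. A match to any of the motifs was found in 2 of the 5 higher genes and 3 of the 4 lower ones. Slc50a1 held TGATGCAA from base -189 to base -182 of its start, and Slc1a4 held TTGCATCA, the reverse complement of the same motif, across its start. The antioxidant core matched as TGACGCGGC in Slc38a2 and as TGACGTGGC in Slc30a5, which also held CACGTG, as did Slc25a1. Slc25a17, Slc3a2, Slc2a8 and Slc29a3 held none of the 3. Over all 32851 windows of the table, 3.97% held the C/EBP-ATF motif, 12.4% the antioxidant core and 7.15% the E-box. Among the 238 windows of Slc genes the counts were 7, 41 and 30. A match is a run of letters in a window and says nothing of binding.

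**Figure D2:**
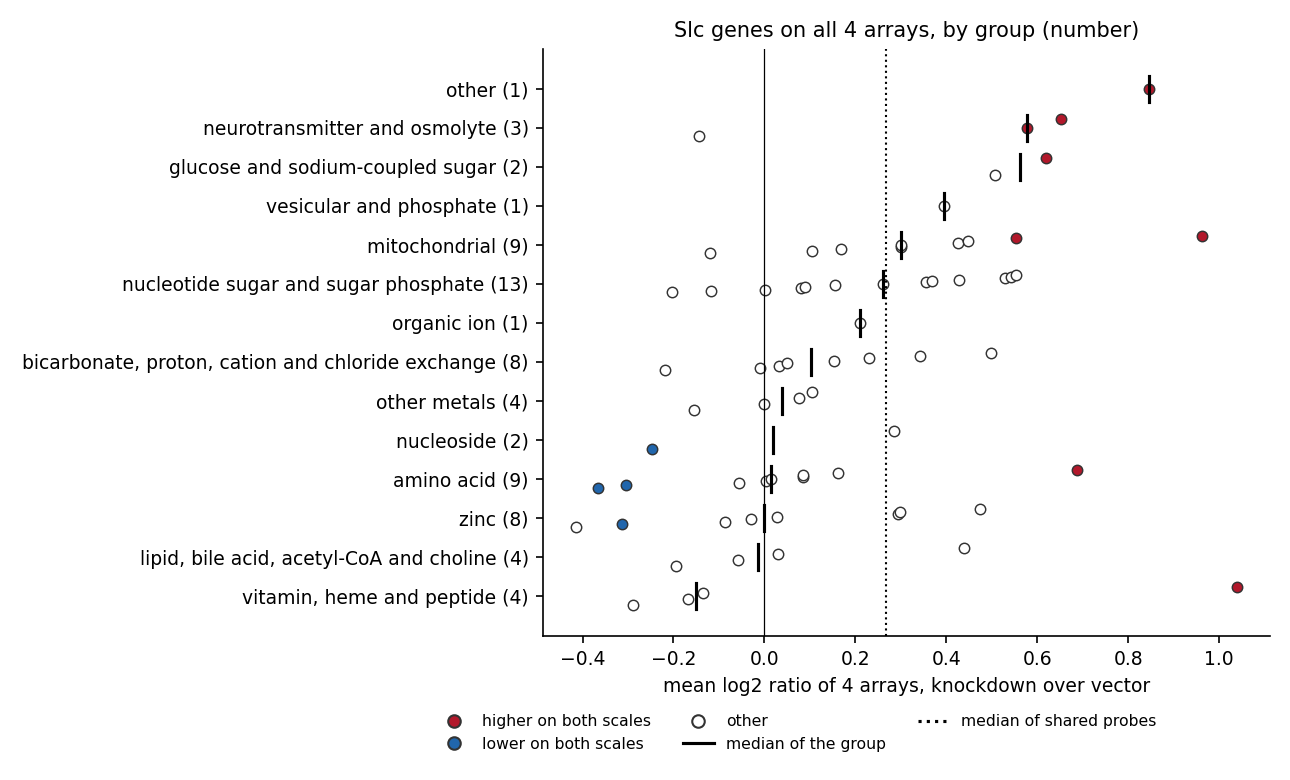
Mean log2 ratio of 4 arrays for each of the 69 Slc genes, one row per group of carrier families, with the number of genes in brackets. Filled points passed on both scales, short bars are group medians and the dotted line is the median of shared probes over both constructs (0.27). The sugar and osmolyte groups have medians of 0.56 and 0.58, and the zinc, amino acid, lipid and vitamin groups have medians at or below 0.01.

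Amino acid carriers (families 1, 3, 7, 36, 38 and 43) had 9 of 30 genes measured on all arrays. As deposited, Slc3a2 rose and Slc1a4 and Slc38a2 fell (45.7% and 8.04% of all genes). The group median was 0.01. After centring 8 of the 9 means lay below 0, where 2288 of all 4754 genes lay above 0. Slc7a6os fell as well after centring (adjusted p = 0.0366 centred, 0.971 as deposited, limma). Slc7a5 and Slc1a5, chosen after their values were seen, are the large neutral amino acid and glutamine carriers most tied to growth. Slc7a5, the light chain of CD98hc, stood at 0.42 and 0.05 with siSelT-1 and 0.02 and -0.71 with siSelT-5. It had 3 ratios above 0 and 1 well below, and it did not pass (adjusted p = 0.763). Slc1a5 stood at 0.35 and -0.28 with siSelT-1 and 0.22 and 0.36 with siSelT-5, and it did not pass either (adjusted p = 0.307).

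Glucose and sodium-coupled sugar carriers had 2 of 15 genes measured on all arrays, and both rose as deposited, where 45.7% of all genes did. Besides Slc2a8, these included Slc2a1, which encodes GLUT1, the main glucose carrier of cultured fibroblasts. Slc2a1 stood at 0.40 and 0.49 with siSelT-1 and 0.54 and 0.59 with siSelT-5, a mean of 0.51 ± 0.08 (adjusted p = 0.00392 as deposited and 0.053 centred). All 4 of its ratios lay above their array's shared median, by less than those of Slc2a8.

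Zinc carriers had 8 of 19 genes measured, and they pointed both ways. Families 30 and 39 act in opposite senses, the first moving zinc out of the cytosol and the second into it. As deposited, the importer genes Slc39a7 and Slc39a1 rose, and Slc30a5 fell (45.7% and 8.04% of all genes). Slc39a7 encodes ZIP7, which releases zinc from the endoplasmic reticulum. It stood at 0.37 and 0.17 with siSelT-1 and 0.73 and 0.63 with siSelT-5 (adjusted p = 0.00601 as deposited and 0.0621 centred). Slc39a1, the surface importer ZIP1, stood at 0.10 and -0.06 with siSelT-1 and 0.72 and 0.44 with siSelT-5, and its mean moved to 0.03 after centring. The siSelT-1 ratios of both importers were below their siSelT-5 ratios. After centring none of the 8 rose and 5 fell, where 20.5% of all genes rose and 21.9% fell. The 5 were Slc30a4, Slc30a5, Slc39a3, Slc39a6 and Slc39a13, with adjusted p from 0.00809 to 0.0434 (limma). As deposited, the means of Slc39a13 and Slc39a3 were 0.03 and -0.03, and neither passed.

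Other metal carriers had 4 of 8 genes measured, and none passed as deposited, where 45.7% of all genes rose and 8.04% fell. The iron carrier gene Slc11a2, DMT1, averaged 0.10 ± 0.28. The copper carrier genes Slc31a1 and Slc31a2 averaged 0.08 ± 0.25 and -0.15 ± 0.31. In each of the 3 genes the SD over arrays exceeded the mean. A second Slc31a1 probe, with siSelT-5 values alone, stood at -1.38 and -0.84. After centring the magnesium carrier gene Slc41a2 fell to -0.27 (adjusted p = 0.038), and its SD of 0.08 was the smallest of the 4 genes.

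Mitochondrial carriers (family 25) had 9 of 38 genes measured on all arrays, and 5 rose as deposited while none fell, the peroxisomal Slc25a17 among them (45.7% and 8.04% of all genes). Besides Slc25a17 and Slc25a1 these were Slc25a3, Slc25a11 and Slc25a39. Slc25a3 encodes the phosphate carrier that feeds ATP synthesis. It stood at 0.50 and 0.39 with siSelT-1 and 0.52 and 0.37 with siSelT-5, a mean of 0.45 ± 0.07, with the constructs overlapping. A second Slc25a3 probe, measured on siSelT-5 replicate 1 alone, stood at -0.94 there. Slc25a39, whose product carries glutathione into mitochondria, averaged 0.43 ± 0.25, and the oxoglutarate carrier gene Slc25a11 averaged 0.30 ± 0.21 over probes of opposite sign (0.70 and -0.09). None of these 3 passed after centring (adjusted p 0.0852 to 0.753). The adenine nucleotide exchangers, which pass ATP out of mitochondria, did not pass as deposited. Slc25a4 averaged 0.30 ± 0.25 (adjusted p = 0.0582) and Slc25a5 0.11 ± 0.45.

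Nucleotide sugar and sugar phosphate carriers, most of which supply the Golgi and endoplasmic reticulum with donors for glycosylation, were the best measured group, with 13 of 23 genes. As deposited 7 rose and none fell, where 45.7% of all genes rose and 8.04% fell. These were the phosphosulfate carrier gene Slc35b2, the xylose and N-acetylglucosamine donor carrier gene Slc35b4, the CMP-sialic acid carrier gene Slc35a1, the GDP-fucose carrier gene Slc35c1, and Slc35a4, Slc35c2 and Slc35e4. Slc35b2 stood at 0.65 and 0.35 with siSelT-1 and 0.48 and 0.74 with siSelT-5, a mean of 0.55 ± 0.17 (adjusted p = 0.00597 as deposited and 0.0531 centred). Slc35e4 averaged 0.53 ± 0.22 and Slc35b4 0.37 ± 0.27. Taken 1 construct at a time as deposited, the 7 genes rose for siSelT-5 (47.6% of all genes) and none rose for siSelT-1 (10.3%). A second Slc35c2 probe stood at -0.16 on siSelT-1 replicate 2 and at -0.38 and 0.40 with siSelT-5. After centring none of the 13 rose, and Slc35f5 fell to -0.47 (adjusted p = 0.013), where 20.5% of all genes rose and 21.9% fell. The group median was 0.26 as deposited and -0.0048 centred.

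Bicarbonate, proton, cation and chloride exchangers had 8 of 29 genes measured, and 2 rose as deposited, where 45.7% of all genes did. Slc4a2 encodes the anion exchanger AE2, which trades chloride for bicarbonate. It stood at 0.31 and 0.18 with siSelT-1 and 0.89 and 0.61 with siSelT-5, a mean of 0.50 ± 0.32 (adjusted p = 0.00645 as deposited and 0.0575 centred). Slc12a9, of the cation-chloride cotransporter family, averaged 0.23 ± 0.13 as deposited (adjusted p = 0.047) but -0.036 centred, over probes at -0.30 and 0.76. The sodium-dependent exchanger gene Slc4a8 averaged 0.34 ± 0.31 and did not pass. After centring none rose, and the anion exchanger gene Slc4a3 fell to -0.28 (adjusted p = 0.0271), where 20.5% of all genes rose and 21.9% fell. Other Slc4a3 probes, with siSelT-5 values alone, stood at -1.01 and -0.84 and at -2.02 and 0.36.

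Vitamin, heme and peptide carriers held the highest Slc gene, Slc48a1, beside 3 genes below 0. Slc15a4, a peptide and histidine carrier of lysosomes, stood at 0.30 and -0.27 with siSelT-1 and -0.45 and -0.73 with siSelT-5. Slc46a1 encodes the proton-coupled folate carrier and stood at 0.19 and -0.15 with siSelT-1 and -0.57 and -0.14 with siSelT-5. Slc19a2, a thiamine carrier gene, stood at 0.20 and -0.06 with siSelT-1 and -0.21 and -0.47 with siSelT-5. In each gene the siSelT-1 arrays lay on both sides of 0 and the siSelT-5 arrays below it. None of the 3 passed as deposited, and all 3 fell centred (adjusted p 0.0145 to 0.0297), where 21.9% of all genes fell.

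The smaller groups were mixed. Among nucleoside carriers, Slc29a1, the equilibrative carrier ENT1 of the surface, rose as deposited while Slc29a3 fell (45.7% and 8.04% of all genes). Slc29a1 passed for siSelT-5 but not for siSelT-1, where both of its ratios lay below 0, and its centred mean was 0.02. Slc44a1, a choline carrier gene, averaged 0.44 ± 0.26 and rose as deposited (adjusted p = 0.00609), and all 3 of its probes were above 0. The acetyl-CoA carrier gene Slc33a1 averaged -0.20 ± 0.28 and fell only after centring (adjusted p = 0.231 as deposited, 0.0442 centred). The fatty acid carrier gene Slc27a1 stood at 0.10 and 0.31 with siSelT-1 and 0.24 and -0.88 with siSelT-5, so its mean of -0.06 rests on siSelT-5 replicate 2, without which it was 0.22. Slc6a17, a vesicular amino acid carrier gene, likewise averaged -0.14, and 0.28 without its value of -1.26 on siSelT-5 replicate 2. The sodium-phosphate carrier gene Slc20a2 averaged 0.39 ± 0.35 and rose as deposited. No mono- or dicarboxylate carrier gene was measured on all arrays.

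The constructs were compared through siSelT-1 minus siSelT-5, in which a dye effect common to all arrays cancels. None of the 69 Slc genes passed, as deposited or centred (limma, smallest adjusted p 0.0557 and 0.113), where 0.0631% of all genes did on each scale. At an unadjusted p under 0.05 there were 14 as deposited (35.7% of all genes) and 11 centred (25.8%). With either siSelT-5 array left out, 15 passed as deposited, where 37.8% of all genes did without replicate 1 and 37.6% without replicate 2. Against vector, each construct was tested with 1 spread per gene shared by both, though siSelT-5 replicates spread more. The counts therefore do not show which construct changed more genes. For siSelT-1 alone 6 Slc genes rose (10.3% of all genes) and none fell (3.37%), where 5 lower ones had an unadjusted p under 0.05. The 6 were Slc48a1, Slc25a17, Slc50a1, Slc6a6, Slc2a8 and Slc3a2, and 2 genes passed when those with 1 value per construct were let into the fit. After centring 3 rose (3.83%) and 1, Slc38a2, fell (5.07%). With siSelT-5 alone 28 rose (47.6%) and 2, Slc15a4 and Slc29a3, fell (6.29%), and after centring 6 rose (19.2%) and 14 fell (20.0%). With either of its own arrays left out siSelT-1 gave 0 calls, over all genes too, and with either siSelT-5 array left out it gave 21 (43.9% of all genes). The siSelT-5 calls numbered 18 with either siSelT-1 array left out (34.1%) and 40 with either of its own left out (61.8% and 63.7%). On simulated data the test recovered 31.2% of differences of 1 log2 between constructs and 0.75% of differences of 0.5. The simulation gave both constructs the same spread and changed few genes, unlike these data, so its recovery need not hold here. The lack of calls does not show that the constructs act alike.

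The 6 genes with the smallest p for this difference as deposited were all lower with siSelT-1. After centring the 6 smallest were other genes and all were higher with siSelT-1, namely Slc19a2, Slc15a4, Slc4a3, Slc12a9, Slc31a1 and Slc7a5, and none passed. Slc29a1 stood at -0.10 and -0.03 with siSelT-1 and 0.68 and 0.59 with siSelT-5, a difference of -0.70 ± 0.15 (SE, adjusted p = 0.0557). Its values join 2 probes that differed with siSelT-1, 1 at 0.22 and 0.17 and the other at -0.43 and -0.22. Slc25a5, the main adenine nucleotide exchanger of dividing cells, stood at -0.45 and -0.07 with siSelT-1 and 0.47 on both siSelT-5 arrays, a difference of -0.73 ± 0.19. Slc20a2 stood at 0.18 and 0.02 with siSelT-1 and 0.69 on both siSelT-5 arrays. Replicates lay closer to each other than the constructs did in each of these 3 genes. Slc22a5, the carnitine carrier gene, stood at -0.05 and -0.16 with siSelT-1 and 0.73 and 0.32 with siSelT-5. A second Slc22a5 probe, measured on siSelT-5 replicate 1 alone, stood at -1.28 there, against 0.73 for the probe used. Slc35c1 stood at 0.04 and 0.02 with siSelT-1 and 0.51 and 0.48 with siSelT-5. The sixth gene was Slc39a1, given above. Over the 69 genes the median difference was -0.21, beside -0.26 over all genes. Both siSelT-1 ratios lay below both siSelT-5 ratios in 30 Slc genes (52.6% of all genes) and above them in 7 (11.9%). After centring the counts were 15 (32.0%) and 18 (28.3%).

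**Figure D3:**
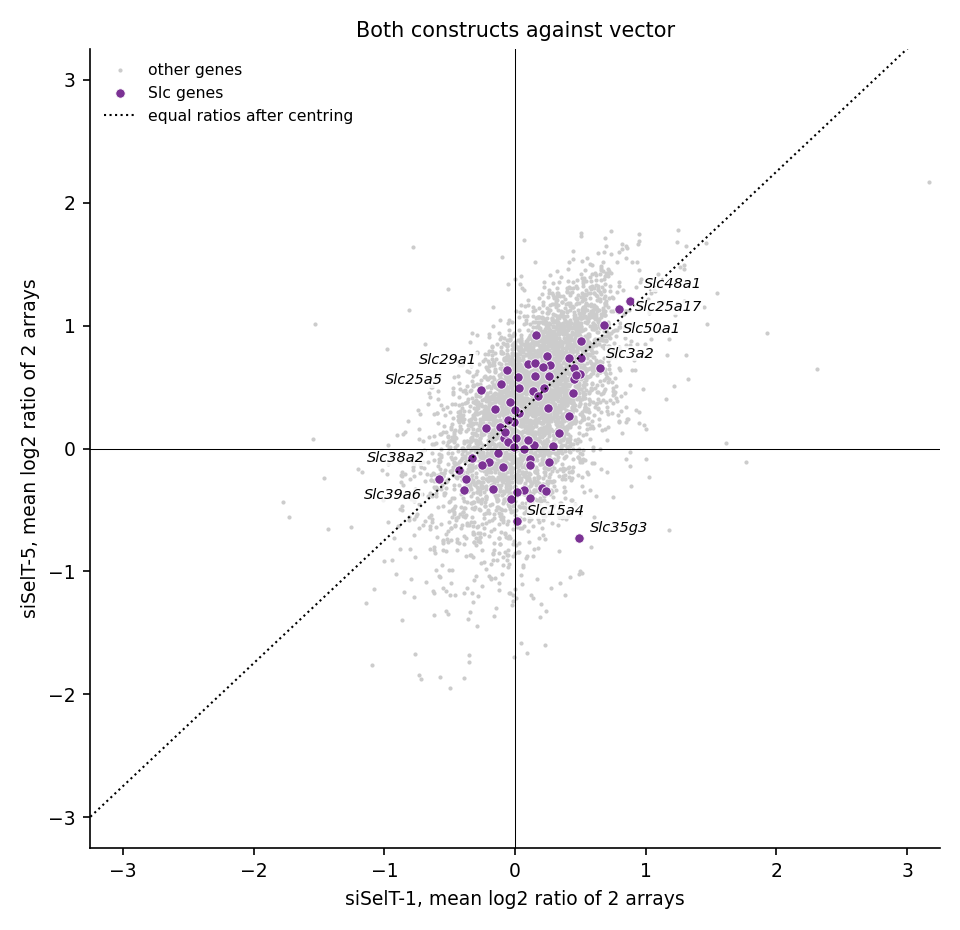
Mean log2 ratio of the 2 siSelT-1 arrays (horizontal) and of the 2 siSelT-5 arrays (vertical) for 69 Slc genes and the other genes measured on all 4 arrays. On the dotted line both constructs have the same centred ratio. Slc48a1, Slc25a17, Slc50a1 and Slc3a2 lie near the line at the top right, Slc29a1 and Slc25a5 lie left of the vertical zero line, and Slc35g3, labelled with Slc39a6 and Slc15a4 after the values were seen, lies lowest because of 1 siSelT-5 array at -1.81.

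For 91 Slc genes the table held both siSelT-5 values and no siSelT-1 value, and these ratios lay far lower than those of the shared genes. Their median was -0.59, beside -0.65 over all 3880 genes of this kind. As deposited 40 fell (44.5% of all 3880 genes) and 1 rose (1.47%). Centred on the median of those genes, 4 fell (8.92%) and 3 rose (7.58%). Centred on the shared probes instead, 61 fell (70.0%) and 1 rose (0.155%). On all 3 scales the same direction was called for 5 Slc genes, 1 higher (0.155% of all 3880 genes) and 4 lower (8.92%).

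Slc27a4, which encodes a fatty acid transport protein of the endoplasmic reticulum, stood highest at 1.23 and 1.14 with siSelT-5, a mean of 1.18 ± 0.07 (SD, n = 2, limma adjusted p = 0.00234 as deposited and 0.00203 centred). It rose on all 3 scales. The choline carrier-like gene Slc44a4 stood at 0.58 and 0.84, and the cationic amino acid carrier gene Slc7a2 at 0.63 and 0.18. Both passed as higher only when centred on the genes of this kind (adjusted p 0.00611 and 0.0241). At the other end, the betaine and GABA carrier gene Slc6a12 stood at -2.12 and -1.69. The zinc carrier gene Slc30a9 stood at -2.39 and -1.11, and the anion exchanger gene Slc26a6 at -1.53 and -1.74. The sulfate carrier gene Slc26a11 stood at -1.39 and -1.60. These 4 fell on all 3 scales (adjusted p 0.00776 to 0.0497 centred on the genes of this kind). The hexose carrier gene Slc2a6, the urate carrier gene Slc22a12, the glutamine carrier gene Slc38a1 and the lysosomal peptide carrier gene Slc15a3 averaged -1.50, -1.48, -1.43 and -1.42 and fell as deposited, but not when centred on the genes of this kind.

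**Figure D4:**
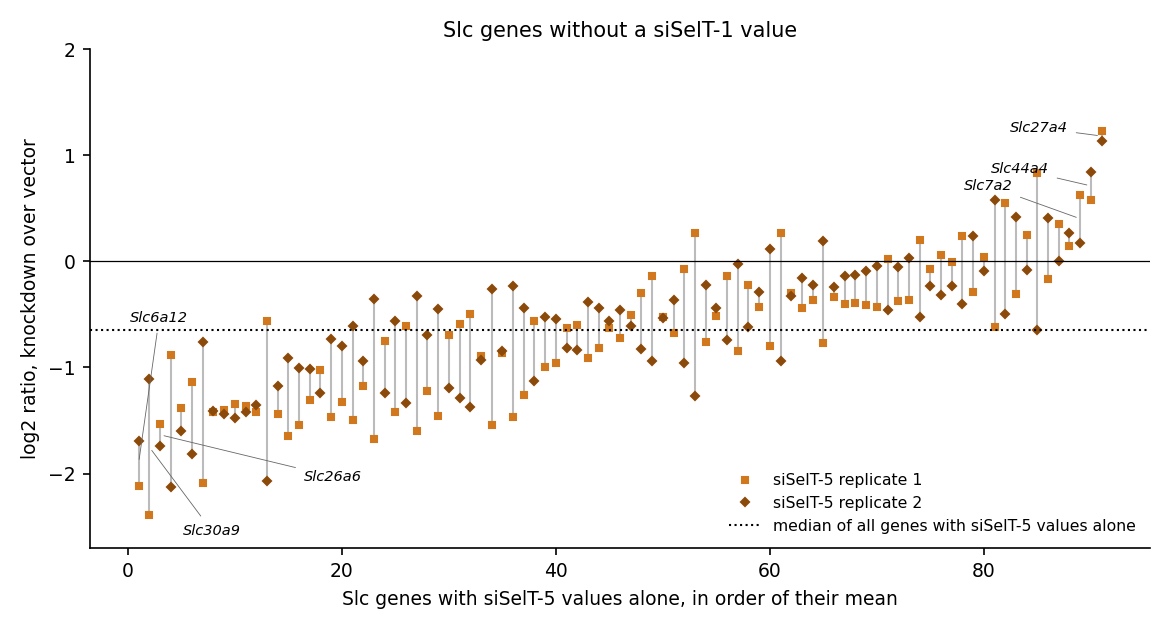
The 2 siSelT-5 log2 ratios of each of the 91 Slc genes without a siSelT-1 value, ordered by their mean, with a line joining the replicates. The dotted line is the median of all 3880 such genes (-0.65), and Slc27a4, Slc44a4 and Slc7a2 stand at the right end while Slc6a12, Slc30a9 and Slc26a6 stand at the left end.

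The other carriers named by rule at the upper end had means close to 0. The lactate exporter gene Slc16a3, MCT4, stood at 0.15 and 0.26, and the myo-inositol carrier gene Slc2a13 at 0.35 and 0.00. Slc6a15, Slc17a2 and Slc25a24 averaged -0.12, -0.15 and -0.21. None of these 5 passed on the deposited scale. Slc7a11, the cystine and glutamate exchanger that partners CD98hc and supplies cysteine for glutathione, was looked up after the values were seen. It stood at -0.41 and -0.09 with siSelT-5 and did not pass (adjusted p = 0.508 as deposited, 0.401 centred on these genes). By family, zinc carriers of this kind had a median of -0.36 over 5 genes, mitochondrial carriers -0.59 over 15, amino acid carriers -0.63 over 13 and ion exchangers -0.85 over 13.

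Of the 71 Slc genes measured in part, 20 had 1 probe with a value for each construct. In a fit that let such genes in, 10 of the 20 passed as deposited (26.1% of the 1270 genes added) and 6 centred (31.3%), with 5 on both scales (18.0%). Each rests on few arrays. The nucleoside carrier gene Slc29a2 stood at 1.49 on siSelT-1 replicate 1 and 1.27 and 0.82 with siSelT-5. The neutral amino acid light chain gene Slc7a8, another partner of CD98hc, stood at 1.30 on siSelT-1 replicate 1 and 0.53 and 1.11 with siSelT-5. The mitochondrial S-adenosylmethionine carrier gene Slc25a26 stood at 1.70 on siSelT-1 replicate 1 and 0.43 and 0.19 with siSelT-5. A second Slc29a2 probe, measured on siSelT-5 replicate 2 alone, stood at -1.72 there, against 0.82 for the probe above on the same array. The zinc carrier gene Slc30a7 stood at -0.29 on siSelT-1 replicate 2 and -0.73 and -0.59 with siSelT-5. The mitochondrial NAD carrier gene Slc25a51 stood at -0.76 on siSelT-1 replicate 2 and -1.59 on siSelT-5 replicate 1, with no repeat of either construct. In 49 of the other 51 genes the values came from single siSelT-5 arrays, between -2.47 and 0.77 with a median of -1.25. Slc5a2 and Slc5a8, sodium-coupled carriers of glucose and monocarboxylates, had a value on siSelT-1 replicate 2 (-2.06 and -2.57) on probes without a siSelT-5 value.

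Genes that work with these carriers were read from a short list. Bsg, the chaperone that brings monocarboxylate carriers to the surface, stood at 0.66 and 0.51 with siSelT-1 and 0.82 and 0.74 with siSelT-5, and it rose on both scales (mean 0.68 ± 0.13, adjusted p = 0.00214 as deposited and 0.00972 centred). Emb, its relative, averaged 0.55 ± 0.27 and rose as deposited alone (0.0906 centred). Their client carriers of family 16 had no gene measured on all arrays. Of the sodium pump genes, the regulator Fxyd1 rose on both scales, at 0.61 ± 0.32. The regulator Fxyd5 rose as deposited, and the subunit gene Atp1b3 averaged 0.01 ± 0.37 as deposited and fell to -0.26 centred. The metallothionein gene Mt2, a zinc buffer, rose on both scales at 0.64 ± 0.17, and the iron regulatory gene Ireb2 fell on both at -0.29 ± 0.12. With siSelT-5 values alone, the ferroxidase gene Cp (mean -1.56), the pump subunit gene Atp1b2 (-0.80) and the aconitase gene Aco1 (-0.73) fell as deposited, and Cp fell also when centred on such genes. The transferrin receptor gene Tfrc (-0.55) and the copper pump gene Atp7a (-0.38) did not pass as deposited.

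The amino acid response list, which holds the factor Atf4 with its sensor and targets, had 4 of 7 genes measured on all arrays. Atf4 stood at 0.24 on both siSelT-1 arrays and at 1.05 and 1.23 with siSelT-5, a mean of 0.69 ± 0.53. Ddit3, the stress factor CHOP, stood at 0.17 and 0.26 with siSelT-1 and 0.91 and 0.86 with siSelT-5, a mean of 0.55 ± 0.39. Both rose over the 2 constructs on both scales (adjusted p 0.00214 and 0.00314 as deposited), with siSelT-5 far above siSelT-1, a difference that did not pass (adjusted p 0.0543 and 0.0585, limma). Asns, the asparagine synthetase gene, averaged 0.22 ± 0.36 and Trib3 0.05 ± 0.30, and neither passed. Slc9a3r2, a scaffold set aside at the start, stood at 1.93 and 2.69 with siSelT-1 and 0.29 and 1.01 with siSelT-5, and it rose on both scales.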

How the data were processed

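The deposited table holds a log ratio per probe and array. The log2 reading of these values, and their direction as Cy5 knockdown over Cy3 vector, follow the dyes and titles per the labels; the base, background correction, normalization and filter the authors used are not given in the sources used here. Per the labels' protocols, cDNA was primed with oligo-dT and coupled to the dyes afterwards. Whether arrays shared vector RNA is not given, and the spread of vector cultures enters no test.

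Of 22534 probes, 18129 carried 1 gene name, 140 several and 4265 none. A gene was the mean of its single-name probes with values on all 4 arrays. Its probes with fewer values were left out of that mean, and several of them differed from the probes used. Genes without any siSelT-1 value were fitted apart on 2 arrays. Ratios were fitted with limma 3.58.1 (lmFit, eBayes) in R 4.3.3 as 2 construct means, with 1 spread per gene shared by both constructs. A result for or over both constructs tests the mean of the 2 construct means against 0. Genes passed at a two-sided Benjamini-Hochberg adjusted p under 0.05 over all genes fitted. Number of arrays limits the precision. Same-numbered arrays of the 2 constructs deviated together at a correlation of 0.08, so the numbers were not treated as pairs. On simulated data with the same number of arrays, shifts of 0.5 log2 in both constructs were called in 76.4% of changed genes. Shifts of 1 were called in 98.4%, and a gap of 1 between constructs in 31.2%. On the siSelT-5 arrays alone a shift of 1 was called in 24.2% and of 2 in 93.2%. The simulation gave all arrays of a gene the same spread and changed few genes. In the data siSelT-5 replicates spread more and many more genes passed.

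Slc members, family groups, partner and marker lists were chosen with earlier results of these data known. Named genes were those passing for both constructs on both scales, the 6 with the smallest p for the difference, the 3 with the smallest p in each family group, and the 8 highest and 8 lowest of those with 2 siSelT-5 values of the same sign, with every measured partner gene. Other names were added with their values in view. Alternatives were centring, a replicate block, single probes, 1 value per construct, robust eBayes and each array left out. Combinations of these with centring were added after the data were seen. Promoters came from RefSeq (GRCm38.p6).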

Additional observations from a re-analysis of the deposited data

Results flagged for a closer look

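In 5 Slc genes both siSelT-1 ratios had one sign and both siSelT-5 ratios the other as deposited, where 12.6% of all genes did. The differences below are siSelT-1 minus siSelT-5, each set beside its adjusted p from limma, and none passed. They were -0.73 for Slc25a5 (0.0655) and -0.70 for Slc29a1 (0.0557), the 2 genes whose constructs also stood on opposite sides of 0 after centring. They were -0.63 for Slc22a5 (0.0877), -0.29 for the zinc carrier gene Slc39a13 (0.246) and 0.24 for the anion exchanger gene Slc4a3 (0.291). Slc29a1 joins 2 probes, at 0.22 and 0.17 and at -0.43 and -0.22 with siSelT-1, so its sign there rests on 1 of them. A second Slc22a5 probe, measured on siSelT-5 replicate 1 alone, stood at -1.28 there. Slc39a13 stood at -0.01 and -0.22 with siSelT-1 and 0.19 and 0.16 with siSelT-5, over 2 probes of opposite sign. Slc4a3 stood at 0.13 and 0.09 with siSelT-1 and -0.12 and -0.15 with siSelT-5. Other Slc4a3 probes, with siSelT-5 values alone, stood at -1.01 and -0.84 and at -2.02 and 0.36.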

How the results depend on the processing

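For both constructs 30 Slc genes passed, and leaving out 1 array gave 0 to 42. After centring 0 passed without either siSelT-1 array and 46 without siSelT-5 replicate 1. For siSelT-1 alone 6 passed, 0 to 21 with an array left out, 2 with 1 value per construct and, after centring, 0 with 1 value per construct, 0 without either siSelT-1 array and 25 without either siSelT-5 array. For siSelT-5 alone 30 passed, 18 to 40 with an array left out, and 5 after centring without either siSelT-1 array. For the difference 0 passed, 0 to 15 with an array left out and, after centring, 18 without siSelT-5 replicate 1 and 13 without siSelT-5 replicate 2. With an array left out, the lone array of a construct is assumed to vary like the other pair, and siSelT-5 replicates spread more. With all 4 arrays as deposited, calls over all 4754 genes numbered 2554 for both constructs, 650 for siSelT-1, 2563 for siSelT-5 and 3 for the difference. They fell and rose across these settings as the Slc counts did, so the changes are not particular to the Slc genes. Of the Slc genes with siSelT-5 values alone 41 passed, 7 centred on the genes of this kind and 62 centred on the shared probes. Over all 3880 genes of this kind the counts were 1783, 640 and 2721. Means that passed in 1 of the settings compared turned for Slc12a9 (-0.036) and Slc35c1 (-0.0048) on centring, and for Slc27a1 (-0.34 to 0.22) and Slc6a17 (-0.57 to 0.28) with an array left out. Means that passed in neither turned for Slc11a2 (-0.16), Slc22a5 (-0.06), Slc25a5 (-0.16) and Slc31a1 (-0.19) on centring, and near 0 for Slc11a2, Slc31a1 and Slc31a2 without 1 siSelT-5 array. The cause was not tested. In a replicate block fit, siSelT-1 passed 0 genes, both constructs 31 and siSelT-5 29, and Slc29a3 no longer passed (adjusted p 0.0539, limma). Robust eBayes and single probes left each total within 1.5 times, though with single probes 4 siSelT-5 calls were lower, against 2.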
